A study of Mus musculus with 24 samples.

Results

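The 9 genes described here encode selenium-containing antioxidant and carrier proteins (Selenop, Selenow, Gpx1, Gpx4 and Txnrd1), mu-class glutathione S-transferases (Gstm1, Gstm5 and Gstm7) and a peroxiredoxin (Prdx6). They are 9 of the 51826 genes in the deposited count table and were found by matching its Ensembl identifiers to the gene symbols of the GENCODE M21 annotation. Selenop and Gstm1 were picked because they differed between genotypes after learning. Their values in that comparison are therefore given as a description, without a test, while the other 7 genes were tested.

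RNA was sequenced from the dorsal hippocampus of male C57BL/6j mice, 2 to 4 months old, that were WT or CBP KIX/KIX. Sex and age are those of the labels, while the study's methods name both sexes for its experiments in general. CBP is a transcriptional coactivator, and the CBP KIX/KIX mice carry 3 point mutations in its KIX domain throughout the body, not in the hippocampus alone. RNA-Seq 1 comprised 3 homecage libraries from WT mice, and 3 from WT and 3 from CBP KIX/KIX mice taken 1 h after training in the Morris water maze (MWM), all from ribosome-depleted total RNA. RNA-Seq 2 comprised 3 homecage libraries from WT and 4 from CBP KIX/KIX mice, and 4 WT and 4 CBP KIX/KIX libraries taken 1 h after contextual fear conditioning (CFC), all poly-A selected. CBP KIX/KIX homecage mice were part of RNA-Seq 2 and not of RNA-Seq 1, and because task, library type and sequencing site changed together, their effects cannot be told apart. Nothing in the labels ties a library to a litter or says which animal it came from, so p-values measure the spread between the libraries. Where factors of unwanted variation were estimated from the libraries themselves, p-values and standard errors measure the spread that remains after those factors.

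Selenoproteins contain selenocysteine, an amino acid that the ribosome inserts at a UGA codon which would otherwise end translation. Selenoprotein P carries selenium between cells and is the main route by which the brain receives it. Glutathione peroxidases and peroxiredoxins reduce peroxides, thioredoxin reductase keeps thioredoxin in its working state, and glutathione S-transferases join glutathione to reactive compounds. In the brain much of this defence is held by astrocytes, while Selenop is also made by the choroid plexus.

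The selenocysteine codon is the feature that sets the 5 selenoproteins apart from the other 4 members. The codon is shown in capitals (TGA in the DNA alphabet) within the surrounding coding sequence of the principal GENCODE M21 transcript (GRCm38, mRNA strand), 5′ to 3′. It lies at codon 13 of Selenow, 47 of Gpx1, 73 of Gpx4 and 498 of Txnrd1, where only 1 further codon precedes the stop.
Selenow: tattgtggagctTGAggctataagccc
Gpx1: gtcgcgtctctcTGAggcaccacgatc
Gpx4: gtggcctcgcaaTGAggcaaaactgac
Txnrd1: cagtctggctgcTGAggttaa
Selenop: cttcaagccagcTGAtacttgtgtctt
The Selenop line shows codon 59, the first of 10 in-frame TGA codons in its 380 coding codons. The annotation marks all 10 as selenocysteine, and the last, at codon 377, is near the end of the protein. Of the 24 selenoprotein genes read from the annotation, Dio2 had 2 such codons and the other 22 had 1 each. The coding sequences of Gstm1, Gstm5, Gstm7 and Prdx6 held no in-frame TGA before the stop.

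The 3 mu-class genes lie within a cluster on mouse chromosome 3 (GRCm38): Gstm5 at chr3:107895821-107898686, Gstm7 at chr3:107926334-107931817 and Gstm1 at chr3:108012255-108017973. The coding sequence of Gstm1 (657 bases) was identical to that of Gstm3 at 89.5% of bases, to Gstm2 at 86.0%, to Gstm7 at 82.6% and to Gstm5 at 69.9%. Of all windows of 100 bases along the Gstm1 transcript, 7.73% also occurred in transcripts of other genes (Gstm2-ps1, Gm8834 and Gstm3), and no window of Gstm7 did. Reads from those shared stretches could have been divided between the copies, since the treatment of multiply mapping reads is not given in the sources used here. The copies were low in comparison: Gstm3 was at or below 0.164 CPM in every library, and Gstm2-ps1 at or below 2.66 CPM, against 106 CPM or more for Gstm1.

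Gpx4 had the largest share of its transcript in common with other genes, at 55.5% of windows, with the processed pseudogene Gpx4-ps2 (3.25 to 8.44 CPM) and AC122253.3. Selenop shared 17.8% of its windows with Ccdc152, a gene on the opposite strand whose end overlaps that of Selenop (chr15:3268547-3280508). Ccdc152 itself was counted at 0.0237 to 0.479 CPM, so it could add little to a Selenop level of at least 39.4 CPM. Gstm5 shared 9.34% of its windows with the antisense gene 4933431E20Rik, which was counted at 45.9 to 104 CPM and was thus about as abundant as Gstm5. Without knowledge of the strand setting, reads from the shared stretch cannot be assigned to Gstm5 or to 4933431E20Rik. Selenow, Gpx1, Txnrd1, Gstm7 and Prdx6 shared no window.

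Levels are given as read counts scaled to a common library size in CPM after upper-quartile normalisation within each experiment. Library totals were 38174044 to 65709282 counts in RNA-Seq 1 and 15385836 to 46056290 in RNA-Seq 2, and the lowest count of any member in any library was 278 (Gstm7), so no level rested on a handful of reads. A floor of 3 counts corresponds to at most 0.194 CPM and covers counting error alone. Per kilobase of exon, Selenow was the most abundant member in both experiments, with 559 ± 76.8 CPM per kb in RNA-Seq 1 (SD, n = 9) and 539 ± 40.3 in RNA-Seq 2 (SD, n = 15). Gstm1 followed with 98.9 ± 15.6 and 106 ± 17.9 CPM per kb. In RNA-Seq 2 the levels of Gstm1, Gstm5 (97.2 ± 7.35) and Gpx4 (89.6 ± 7.85) did not differ beyond their spread, whereas Selenop (72.8 ± 5.26), Prdx6 (37.9 ± 2.08), Gpx1 (23.3 ± 2.15), Gstm7 (15.7 ± 2.48) and Txnrd1 (8.81 ± 0.416) followed in steps larger than their SDs. The length used is that of all annotated exons of a gene, which exceeds the principal transcript unevenly. It was 7086 against 3325 bases for Txnrd1, 1724 against 959 for Gpx4 and 1473 against 1289 for Gstm1. The order below Selenow therefore depends on the length chosen.

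Some members were far lower in RNA-Seq 1 than in RNA-Seq 2, which differ in task, library type and sequencing site together. Selenop had a median of 56.2 CPM in RNA-Seq 1 and 206 CPM in RNA-Seq 2, and Gstm5 had 47.2 and 126 CPM. Gpx4 (96.2 and 152 CPM), Prdx6 (113 and 181 CPM), Gstm7 (19.4 and 25.3 CPM) and Gstm1 (136 and 158 CPM) were also lower in RNA-Seq 1. Selenow (422 and 393 CPM), Gpx1 (32.2 and 33.0 CPM) and Txnrd1 (58.6 and 62.8 CPM) were similar in both. The 2 experiments were normalised separately, so only comparisons within an experiment are tested or described as differences from here on.

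Selenop, the secreted selenium carrier, was raised after learning in the CBP KIX/KIX mice relative to WT. After MWM its level was 45.9, 54.3 and 56.2 CPM in the WT libraries and 66.7, 84.9 and 58.1 CPM in the CBP KIX/KIX libraries. Every CBP KIX/KIX library was above every WT library, although the lowest of the former exceeded the highest of the latter by little. After CFC the WT libraries had 190, 208, 187 and 203 CPM and the CBP KIX/KIX libraries 206, 231, 215 and 229 CPM. Here the groups overlapped, with the lowest CBP KIX/KIX library below the highest WT library. The means were 52.1 ± 5.49 and 69.9 ± 13.7 CPM after MWM (SD, n = 3 and 3) and 197 ± 10.003 and 221 ± 11.9 CPM after CFC (SD, n = 4 and 4). Over both experiments the log2 fold change was 0.27 with a standard error (SE) of 0.03, and it was 0.43 (SE 0.13) in RNA-Seq 1 alone and 0.16 (SE 0.05) in RNA-Seq 2 alone. The fit over both experiments carried 4 factors of unwanted variation estimated from the residuals of these libraries. Its SE therefore leaves out the spread that the factors absorbed. The fits within a single experiment carried none, and without the factors the value over both was also 0.27.

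Gstm1, which conjugates glutathione to electrophilic compounds, was lower in CBP KIX/KIX mice. After MWM it was at 136, 151 and 146 CPM in WT and at 130, 132 and 119 CPM in CBP KIX/KIX libraries. After CFC the WT libraries had 175, 197, 170 and 177 CPM and the CBP KIX/KIX libraries 127, 157, 140 and 140 CPM. The groups did not overlap after either task. The means were 144 ± 7.93 and 127 ± 6.52 CPM after MWM (SD, n = 3 and 3) and 180 ± 11.9 and 141 ± 12.5 CPM after CFC (SD, n = 4 and 4). The log2 fold change was -0.28 (SE 0.03) over both experiments, -0.18 (SE 0.07) in RNA-Seq 1 and -0.36 (SE 0.07) in RNA-Seq 2. The SE over both experiments again leaves out the spread absorbed by the factors, and without them the value was also -0.28. Unlike that of Selenop, the change of Gstm1 was larger after CFC than after MWM in size, but neither difference between the tasks was tested, because both genes were chosen on these libraries.

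**Figure D1:**
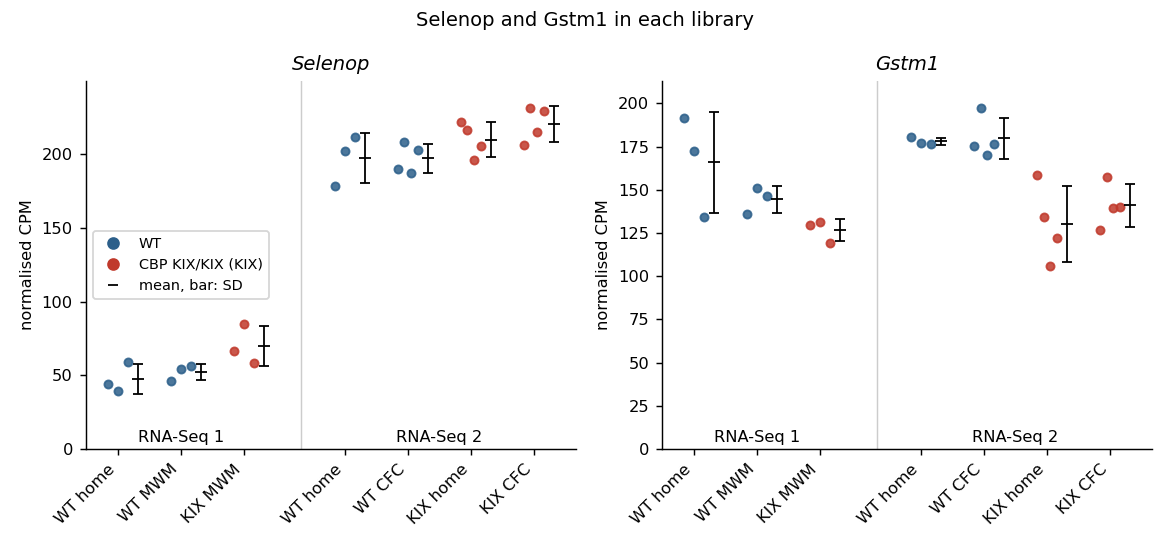
Level of Selenop (left) and Gstm1 (right) in normalised CPM in each of the 24 libraries, with WT libraries in blue, CBP KIX/KIX libraries in red, and black marks for the group mean with its SD. Selenop in CBP KIX/KIX libraries after MWM was between 58.1 and 84.9 CPM, above the 3 WT libraries of that task, and Gstm1 in RNA-Seq 2 was at 158 CPM or less in the 8 CBP KIX/KIX libraries and at 170 CPM or more in the 7 WT libraries.

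None of the 7 tested members differed between genotypes after learning at an adjusted p under 0.05 (edgeR quasi-likelihood test with 4 estimated factors of unwanted variation, Benjamini-Hochberg adjustment over 21489 genes). The background was 2.84% of all genes called, 254 of them higher and 356 lower in CBP KIX/KIX mice. At an unadjusted p under 0.05 there were 2 of the 7, Gstm7 and Txnrd1, against 18.2% of all genes, and DESeq2 with the same factors called 1, Gstm7, at a background of 4.34% of all genes. Without the factors 4 genes were called in all. The median log2 fold change was -0.02 over the 9 members and -0.01 over all genes tested.

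Gstm7, a mu-class relative of Gstm1, had the larger of these differences and the opposite sign. After MWM its level was 17.8, 17.3 and 16.2 CPM in WT and 20.4, 21.4 and 20.0 CPM in CBP KIX/KIX libraries, with no overlap. After CFC it was 24.998, 25.3, 25.4 and 27.6 CPM in WT and 22.9, 33.3, 26.7 and 27.3 CPM in CBP KIX/KIX libraries, and the groups overlapped fully. The log2 fold change over both experiments was 0.17 (SE 0.04, adjusted p = 0.0509 in edgeR and 0.0337 in DESeq2). It stood just outside the threshold in the edgeR fit, and leaving out any of 3 of the 14 libraries (CBP KIX/KIX MWM replicate 3, CBP KIX/KIX CFC replicate 1 or 3) brought it inside, with adjusted p of 0.0103 to 0.174 over the 14. With the choroid plexus marker sum as a covariate, a fit added after seeing the data, the adjusted p was 0.0164, and without the estimated factors it was 0.514. In RNA-Seq 1 alone it was 0.27 (SE 0.08, adjusted p = 0.435) and in RNA-Seq 2 alone 0.09 (SE 0.10, adjusted p = 1.0).

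Txnrd1, the cytosolic thioredoxin reductase, was at 63.0, 53.2 and 58.6 CPM in WT and 50.5, 50.1 and 51.8 CPM in CBP KIX/KIX libraries after MWM. All 3 CBP KIX/KIX libraries were below all WT libraries of RNA-Seq 1, homecage included. After CFC the groups overlapped, with 62.1 to 68.3 CPM in WT and 58.4 to 65.4 CPM in CBP KIX/KIX libraries. The log2 fold change was -0.10 (SE 0.03, adjusted p = 0.119) over both experiments.

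Of the 9 members, 2 were higher in every CBP KIX/KIX library than in every WT library after MWM (Selenop and Gstm7) and 2 were lower in every one (Txnrd1 and Gstm1). Over all genes 8.37% were higher in every one, 9.06% were lower in every one and 17.4% did not overlap in either direction, and since Selenop and Gstm1 were chosen on these libraries, nothing is read from the count. After CFC 1 member, Gstm1, did not overlap, against 2.54% of all genes. The remaining members showed small values: Gpx4 had a log2 fold change of -0.06 (SE 0.03, adjusted p = 0.384), Prdx6 of -0.04 (SE 0.02, adjusted p = 0.412) and Selenow of -0.02 (SE 0.03, adjusted p = 0.792). Gstm5 had a log2 fold change of 0.04 (SE 0.03, adjusted p = 0.619) and Gpx1 one of 0.01 (SE 0.04, adjusted p = 0.946). Gpx1 and Gpx4 are peroxidases that draw on glutathione, Gpx4 acting on lipid peroxides in membranes, and Prdx6 reduces phospholipid peroxides.

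**Figure D2:**
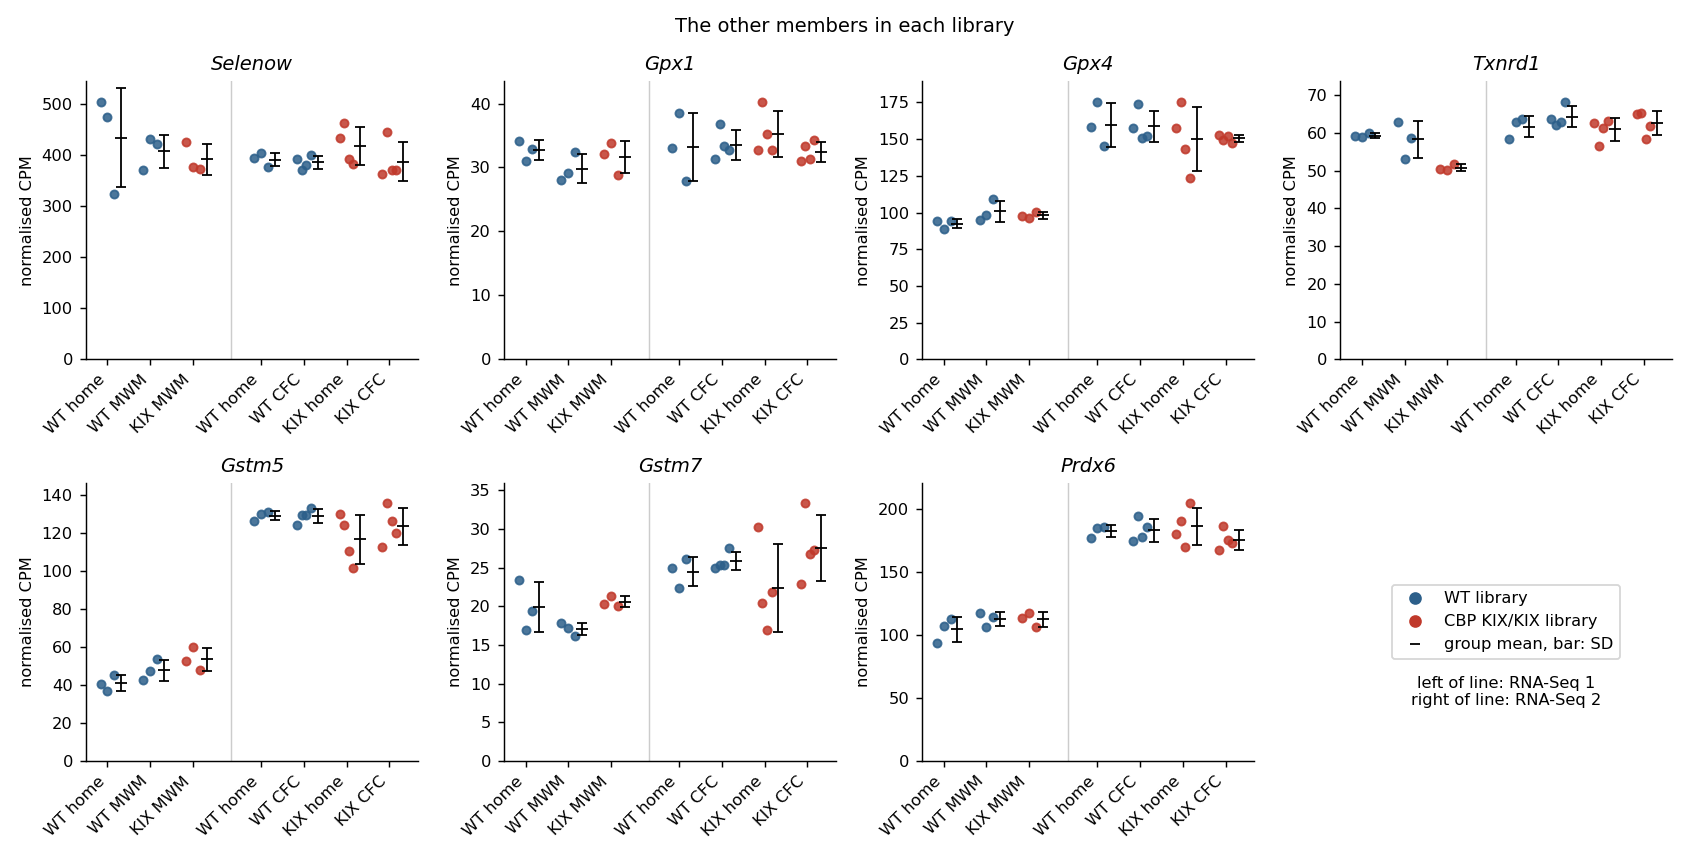
Levels of the other 7 members in normalised CPM in each library, with RNA-Seq 1 left and RNA-Seq 2 right of the grey line, WT in blue, CBP KIX/KIX in red, and group mean with SD in black. Txnrd1 after MWM was between 50.1 and 51.8 CPM in the CBP KIX/KIX libraries, below the WT libraries of RNA-Seq 1.

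The level of choroid plexus markers differed widely between libraries. The summed level of 10 choroid plexus markers ran from 211 to 6667 CPM over the 24 libraries, and no marker of this list was at 0 in any library. In RNA-Seq 1 the Selenop level followed this sum within each group: among WT MWM libraries with sums of 304, 783 and 1954 CPM Selenop was at 45.9, 54.3 and 56.2 CPM, and among CBP KIX/KIX MWM libraries with sums of 314, 1478 and 3327 CPM it was at 58.1, 66.7 and 84.9 CPM. In RNA-Seq 2 the order was not kept, since the CBP KIX/KIX CFC library with 299 CPM of markers had the highest Selenop (231 CPM) and that with 6185 CPM had 215 CPM. With the log2 of the marker sum as a covariate, a fit added after seeing the data, the Selenop log2 fold change after learning was 0.28 (SE 0.03) and that of Gstm1 -0.28 (SE 0.03). This fit gave both experiments a common slope on the marker sum, beside the estimated factors. It cannot adjust for a relation present in RNA-Seq 1 and absent in RNA-Seq 2, and no such fit was run within RNA-Seq 1. Astrocyte markers were also among the genes that passed after learning, 3 of 10: Gfap (log2 fold change -0.29, adjusted p = 0.00191) and Aldh1l1 (-0.26, adjusted p = 0.00432) were lower and Gja1 (0.16, adjusted p = 0.00807) was higher in CBP KIX/KIX mice, while the marker sum was 3906 to 4158 CPM in WT and 3783 to 3913 CPM in CBP KIX/KIX libraries after MWM. Their part in the Gstm1 difference was not tested. In such bulk tissue, fewer cells of a type and less RNA per cell cannot be told apart.

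Leaving out the CBP KIX/KIX MWM library of the highest Selenop level and the highest marker sum of RNA-Seq 1 gave a Selenop log2 fold change of 0.20 (SE 0.03). In RNA-Seq 1 the change of all genes also moved with base composition. When all genes were divided into 10 bins by exonic GC content, those in the bin of Selenop (43.8% GC) had a median log2 fold change of 0.07 between genotypes after MWM, and those in the bin of Gstm1 (53.6% GC) one of -0.07. In RNA-Seq 2 these medians were 0.01 and -0.00. After GC-content normalisation of the counts the log2 fold changes over both experiments were 0.25 (SE 0.03) for Selenop and -0.22 (SE 0.03) for Gstm1.

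The homecage comparison asks whether the genotypes differ without training, and it used none of the libraries on which Selenop and Gstm1 were chosen. Gstm1 was at 180, 177 and 177 CPM in the WT homecage libraries of RNA-Seq 2 and at 158, 134, 106 and 122 CPM in the CBP KIX/KIX homecage libraries. All 4 CBP KIX/KIX libraries were below all 3 WT libraries, the WT values being nearly equal and the CBP KIX/KIX values widely spread. The means were 178 ± 2.03 CPM (SD, n = 3) and 130 ± 22.2 CPM (SD, n = 4). The log2 fold change was -0.45 (SE 0.12), with an unadjusted p of 0.00375 and an adjusted p of 0.738 over the 18682 genes tested in edgeR, and an adjusted p of 0.0556 in DESeq2. It did not pass the threshold in either tool. Gstm1 was the single member without overlap in this comparison, against 6.88% of all genes.

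Within each experiment, every CBP KIX/KIX library had less Gstm1 than every WT library, whatever the treatment: in RNA-Seq 1 the ranges were 119 to 132 CPM for CBP KIX/KIX against 134 to 191 CPM for WT, and in RNA-Seq 2 they were 106 to 158 CPM against 170 to 197 CPM. Part of this separation is the difference for which the gene was chosen. The other members did not separate the genotypes in both experiments. Txnrd1 did so in RNA-Seq 1, and in RNA-Seq 2 none of the other 8 did. Over all genes the genotypes did not overlap for 8.29% in RNA-Seq 1 and for 0.138% in RNA-Seq 2.

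The summed level of astrocyte markers was higher in the homecage libraries with less Gstm1. The sum over 10 astrocyte markers was 4546 to 4691 CPM in the WT homecage libraries and 4765, 5061, 5726 and 6743 CPM in the CBP KIX/KIX homecage libraries, the highest 2 belonging to the libraries with 106 and 122 CPM of Gstm1. No marker of the list was at 0 in any library. The sum weighs each marker by its level, with means over the 24 libraries from 25.4 CPM (Sox9) to 2282 CPM (Slc1a2) and 380 CPM for Gfap. It is therefore not a reading of the list as a whole. Of the 10 markers 6 had a positive log2 fold change, with a median of 0.09, 3 at an unadjusted p under 0.05 and none called. Gfap, the filament protein of reactive astrocytes, had a log2 fold change of 1.32 between the homecage genotypes (SE 0.42, adjusted p = 0.786). Without these 2 libraries the log2 fold change of Gstm1 was -0.28 (SE 0.08, adjusted p = 0.822), and with the marker sum as a covariate -0.26 (SE 0.12, adjusted p = 0.915), both computed after seeing the data. The 2 libraries left out were also those with the least Gstm1, so a value nearer 0 without them follows from the choice. They were also the CBP KIX/KIX homecage libraries of lowest depth (16567226 and 15940061 counts). The WT homecage library of lowest depth (15385836 counts) had 177 CPM of Gstm1. Depth was not a term of the homecage fit, and its part was not tested. The marker sums of the homecage genotypes did not overlap, so genotype and marker sum cannot be told apart in these fits. After CFC, where the Gstm1 groups did not overlap either, the marker sums were 4455 to 4617 CPM in WT and 4399 to 4730 CPM in CBP KIX/KIX libraries. Gstm1 was chosen on these CFC libraries, and the part of astrocytes in its difference was not tested.

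**Figure D3:**
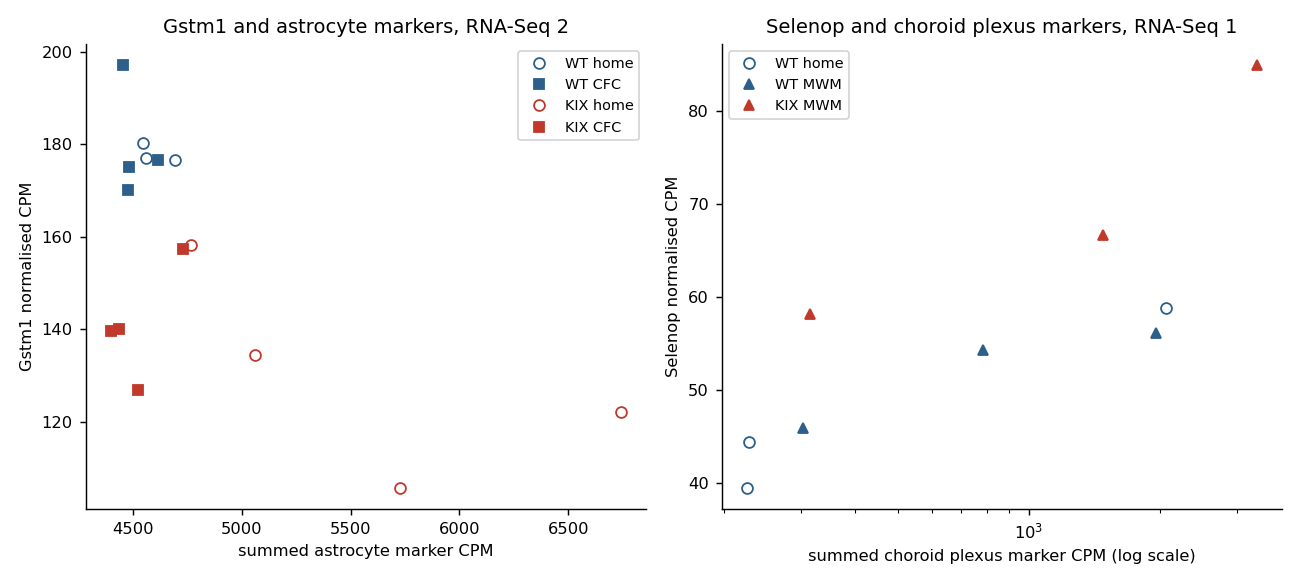
Left, Gstm1 in normalised CPM against the summed CPM of 10 astrocyte markers in the 15 libraries of RNA-Seq 2. Right, Selenop in normalised CPM against the summed CPM of 10 choroid plexus markers (log axis) in the 9 libraries of RNA-Seq 1. WT is blue and CBP KIX/KIX red, open symbols are homecage and filled symbols trained mice. The 2 homecage libraries with 5726 and 6743 CPM of astrocyte markers stand apart at 106 and 122 CPM of Gstm1. The CFC libraries had marker sums of 4399 to 4730 CPM, and their separation by genotype in Gstm1 is part of the difference for which the gene was chosen.

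Selenop in the homecage was at 179, 203 and 212 CPM in WT and at 222, 217, 196 and 206 CPM in CBP KIX/KIX libraries, and the groups overlapped. The log2 fold change was 0.09 (SE 0.07, adjusted p = 0.872). For the other members the homecage values ran from -0.14 (Gstm5, SE 0.08) to 0.10 (Selenow, SE 0.08), with adjusted p of 0.826 and 0.864. None of the 9 members was called, at a background of 0.0107% of all genes, and DESeq2 called none of them either, at 0.305%. At an unadjusted p under 0.05 there was 1 member, Gstm1, against 6.12% of all genes.

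**Figure D4:**
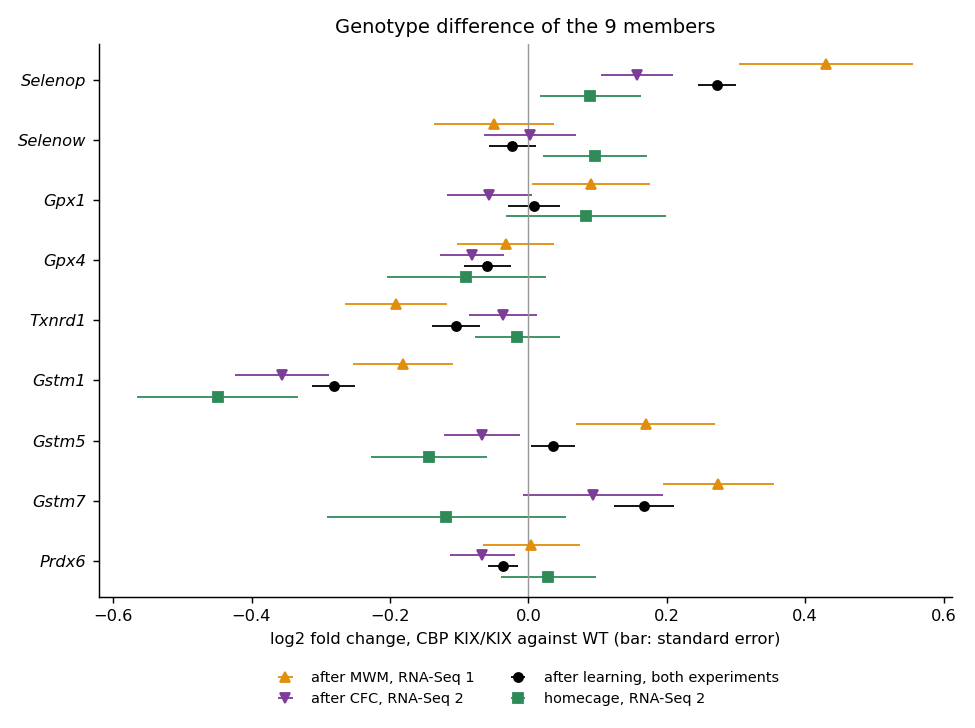
Log2 fold change of CBP KIX/KIX against WT for each member, with its standard error as a bar, after MWM alone, after CFC alone, over both tasks with the estimated factors, and in the homecage. The fit over both tasks pools the MWM and CFC libraries, so the 4 fits are not independent. Selenop and Gstm1 were chosen on those libraries, and for them the homecage fit alone is free of that choice. Gstm1 was below 0 in all 4 fits (-0.18, -0.36, -0.28 and -0.45), Selenop was above 0 in all 4 (0.43, 0.16, 0.27 and 0.09), Txnrd1 (-0.19, -0.04, -0.10 and -0.02) and Gpx4 (-0.03, -0.08, -0.06 and -0.09) were below 0 in all 4, and the other 5 members changed sign between fits.

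The difference between the genotype effect after CFC and that in the homecage was tested within RNA-Seq 2. No gene of 18851 passed (edgeR, background 0.0%), with 903 (4.79%) at an unadjusted p under 0.05 and 1 called by DESeq2 (0.0053%), which is no member. For Gstm1 the genotype effect was below 0 in both and less negative after CFC than in the homecage (log2 difference 0.10, SE 0.14). For Selenop it was above 0 in both and higher after CFC by 0.07 (SE 0.09). Both differences are given without a test. Among the tested members Gstm7 had the largest difference, 0.21 (SE 0.21, adjusted p = 0.959), followed in size by Gpx1 with -0.13 (SE 0.13, adjusted p = 0.959). These SEs are as large as the values, so a dependence of the genotype effect on training was not detectable for the tested members at this depth and number of libraries.

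Between MWM and CFC, the genotype effect of Selenop was smaller after CFC by 0.27 on the log2 scale (log2 difference -0.27, SE 0.14, described without a test). Among the tested members Gstm5 had the difference of largest size, -0.23 (SE 0.12, adjusted p = 0.755), and Txnrd1 had 0.16 (SE 0.08, adjusted p = 0.755). The values of 7 of the 9 members were below 0, and no tested member had an unadjusted p under 0.05. No gene of 21489 passed this test in edgeR or in DESeq2 (background 0.0%), with 1389 (6.46%) at an unadjusted p under 0.05 in edgeR.

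Learning itself was compared with the homecage in WT mice over both experiments, and the members' log2 fold changes ran from -0.08 to 0.11. Selenop and Gstm1 were chosen on libraries that include these WT trained ones, so their values are given without a test. None of the other 7 was called (edgeR with 3 factors, 22038 genes tested, background 1.05%), and 1, Gstm5, had an unadjusted p under 0.05, against 17.3% of all genes. DESeq2 called none, at a background of 3.73%. Gstm5 was 36.9 to 45.1 CPM in the WT homecage and 42.5 to 53.5 CPM after MWM, and 126 to 131 and 124 to 133 CPM in the homecage and after CFC. Its log2 fold change was 0.11 (SE 0.04, adjusted p = 0.241), and with libraries of like number as a block 0.11 (SE 0.03, adjusted p = 0.0515). Gstm1 had a log2 fold change of -0.08 (SE 0.04), Selenop of 0.07 (SE 0.04), Gpx4 and Prdx6 of 0.06 each (SE 0.04 and 0.03, adjusted p = 0.486 and 0.398). The 10 choroid plexus markers had positive log2 fold changes, all with an unadjusted p under 0.05 and 2 called (Aqp1 and Folr1), with a median log2 fold change of 1.17, and their part in these values was not tested.

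In this comparison the libraries with like replicate numbers deviated together, and with the number as a block 905 genes were called in place of 231, still with none of the 7 tested members. A WT homecage library of RNA-Seq 1, replicate 3, stood apart from the other replicates of its group. It had 134 CPM of Gstm1 against 191 and 173 CPM, 324 CPM of Selenow against 505 and 475 CPM, and 58.8 CPM of Selenop against 44.4 and 39.4 CPM, and its choroid plexus marker sum was 2054 CPM against 229 and 226 CPM. Without it 2274 of 22494 genes tested were called, where 231 of 22038 were called with it. Selenow (log2 fold change -0.13) and Gstm5 (0.13) were among these 2274, and the log2 fold change of Gstm1 was -0.13. Gpx4 was the single member whose MWM and homecage libraries did not overlap in WT mice, with 95.0, 98.3 and 109 CPM after MWM and 94.0, 88.7 and 94.3 CPM in the homecage, against 13.5% of all genes. After CFC no member separated from the homecage, against 5.34% of all genes.

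In CBP KIX/KIX mice, training by CFC was compared with the homecage in RNA-Seq 2. The fit treated the libraries as unpaired, although those of like replicate number deviated together. With the number as a block 2 genes were called, and 2 without it. Gstm7 was at 30.3, 20.4, 16.9 and 21.8 CPM in the homecage and at 22.9, 33.3, 26.7 and 27.3 CPM after CFC. The groups overlapped and the log2 fold change of 0.29 (SE 0.17, adjusted p = 0.606) was within the spread. Gpx1 had a log2 fold change of -0.13 (SE 0.08, adjusted p = 0.624). Gstm1 had one of 0.11 (SE 0.11) and Selenop one of 0.07 (SE 0.06), without a test, because the CFC libraries are among those on which they were chosen. None of the 7 tested members was called in edgeR or DESeq2, at backgrounds of 0.0113% and 0.26%, or had an unadjusted p under 0.05, against 9.43% of all genes, and none of the 9 separated the groups, against 5.04% of all genes.

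The relatives of the members were read from 7 lists of 113 genes in all, covering selenoproteins, selenium handling, glutathione S-transferases, glutathione synthesis and recycling, the peroxiredoxin, thioredoxin and glutaredoxin systems, superoxide dismutases with catalase, and the pathway of the transcription factor NRF2, which switches on antioxidant genes. Of the 98 tested genes that are not members, 1 was called between genotypes after learning. Over all genes 2.84% were called, so this count does not stand above the background. An unadjusted p under 0.05 was found for 23 of the 98, a somewhat larger share than the 18.2% of all genes, and this excess was not tested. By list the counts ran from 0 of 5 (superoxide dismutases and catalase) to 7 of 16 (glutathione synthesis and recycling). The called gene was Selenot, an oxidoreductase of the endoplasmic reticulum, with a log2 fold change of 0.10 (SE 0.03, adjusted p = 0.0466). Selenof, another selenoprotein of that compartment, had 0.11 (SE 0.03, adjusted p = 0.0532), and it was chosen here after its value was seen.

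In the NRF2 list 4 of 20 genes had a positive log2 fold change and the median was -0.05, with 6 at an unadjusted p under 0.05 and none called. Among the 22 selenoproteins tested, 12 had a positive log2 fold change and their median was 0.01, against -0.01 over all genes. Among the 21 glutathione S-transferases 13 were positive, with a median of 0.02. The lowest p of a transferase other than the members belonged to Mgst3, a microsomal enzyme, with -0.19 (SE 0.05, adjusted p = 0.0614). No gene passed in the other 5 lists. Their lowest p values belonged to Sephs1 (0.10, SE 0.04, adjusted p = 0.199) in selenium handling, Chac1, which breaks glutathione down (0.23, SE 0.07, adjusted p = 0.0869), Sesn1, a stress-induced partner of the peroxiredoxins (0.10, SE 0.03, adjusted p = 0.0936), and Slc7a11, the cystine importer (0.19, SE 0.07, adjusted p = 0.136), each given as a log2 fold change. Among the 5 superoxide dismutase and catalase genes none had an unadjusted p under 0.05.

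**Figure D5:**
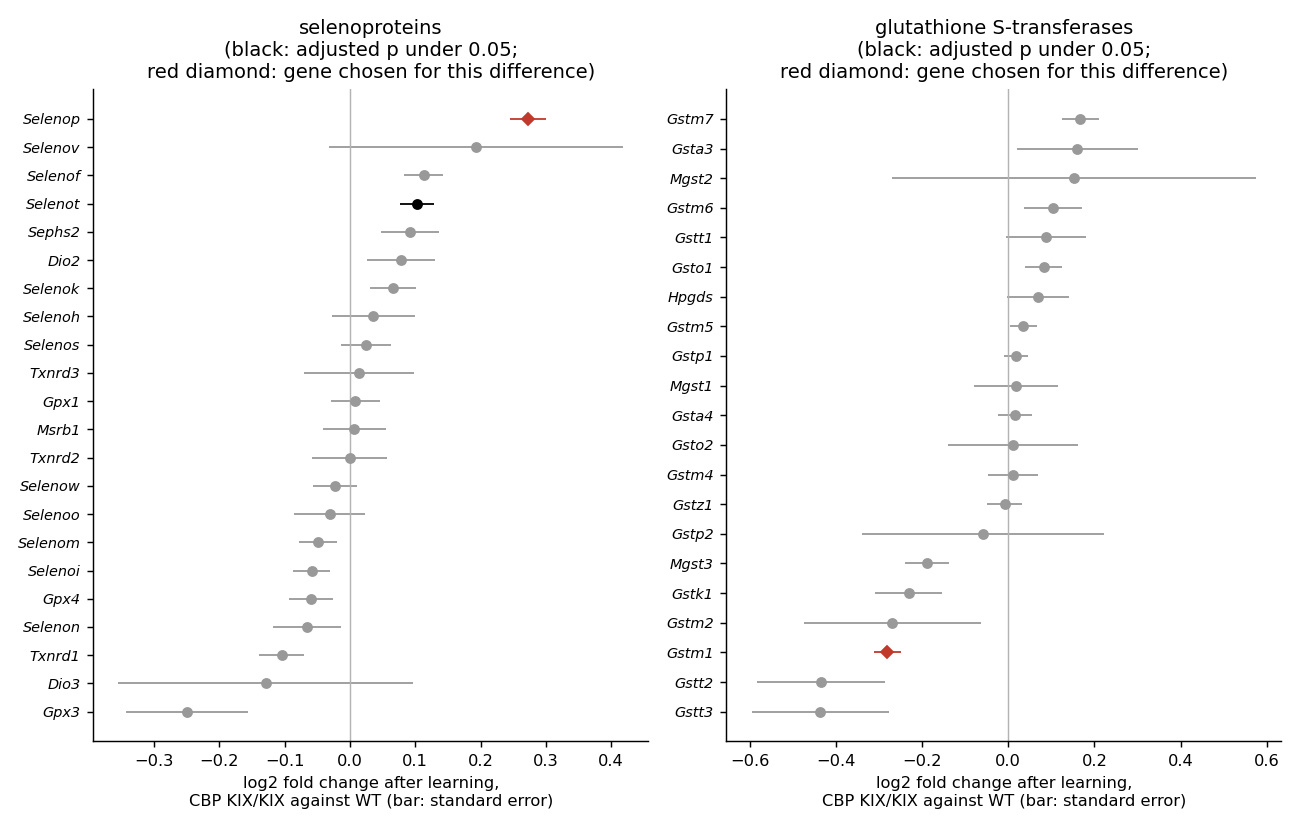
Log2 fold change of CBP KIX/KIX against WT after learning, with standard errors, for the 22 selenoproteins (left) and 21 glutathione S-transferases (right) that were tested. Selenop and Gstm1, drawn as red diamonds, were chosen for this difference and carry no test here. Among the remaining genes drawn, Selenot (0.10) is the single gene past the threshold.

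In WT mice 1 gene of the lists rose after learning, Dio2, the deiodinase that makes active thyroid hormone in the brain, with a log2 fold change of 0.29 (SE 0.04, adjusted p = 0.00471). It was the 1 gene called of 108 tested in the 7 lists, and 1.05% of all genes were called, so the count does not stand above the background. No gene of the lists was called between homecage genotypes (0 of 106), between CBP KIX/KIX mice after CFC and in the homecage (0 of 105), or for either difference of genotype effects (0 of 107 each), all in edgeR. At an unadjusted p under 0.05 there were, beside the members, 6 of 97, 12 of 96, 3 of 98 and 4 of 98 genes in these comparisons, where 6.12%, 9.43%, 4.79% and 6.46% of all genes had one. In the homecage comparison the lowest p in a list other than that of Gstm1 belonged to Taldo1, an enzyme of the pentose phosphate pathway (0.16, SE 0.05, adjusted p = 0.786).

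The genes that ran most closely with the members over the 24 libraries were found by Pearson correlation of log2 CPM centred on each experiment, among 14082 other genes. These correlations describe libraries that share dissection, batch and depth, and, being centred on the experiment and not on the group, they contain the genotype difference for which Selenop and Gstm1 were chosen. No p is attached. For Selenop the closest were Snx2 (r = 0.91), Tmsb4x (0.91), Cwc15 (0.90), Acbd5 (0.90) and Naca (0.90). For Gstm1 they were Plekhh3 (0.86), Rapgef3 (0.85), Dbp (0.85), Gdf10 (0.84) and Isoc2a (0.82). Dbp encodes a transcription factor of the circadian output. Among the members themselves the highest correlation was that of Selenop with Gstm5 (0.73) and the lowest that of Selenop with Txnrd1 (-0.53).

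Promoter windows, from 250 bases before to 50 after a RefSeq start site (GRCm38.p6), were found for 8 of the 9 members, 17 windows in all. None held the full cAMP response element TGACGTCA, which 1.79% of 32851 mouse promoter windows held, or the E-box CACGTG, which 7.15% held, on either strand. The short core TGACG, which is part of the full element, occurred in 8 of the 17 windows, which overlap within a gene and belong to 4 members (Selenop, Gpx4, Txnrd1 and Gstm5), and in 20.8% of all windows. The antioxidant response element TGACNNNGC occurred in 3 of the 17, of Gstm5, Gstm7 and Txnrd1, and in 12.4% of all windows. Gstm1 had none of the 4.

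Crebbp, the mutated gene, ranged over 137 to 212 CPM within RNA-Seq 1, over 65.2 to 77.9 CPM within RNA-Seq 2, and had a log2 fold change of -0.02 between genotypes after learning (SE 0.04, adjusted p = 0.894). Point mutations leave the gene count as it is, so this value does not check the genotype labels.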

How the data were processed

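Gene counts for the 24 libraries were used as deposited. Per the labels and the methods of the study, the authors aligned reads with STAR to the mouse genome (GRCm38, mm10), used SAMtools 1.6, and counted reads per gene with featureCounts 1.4.4, so that the deposited values are raw counts, not normalized. The annotation release, the strand setting and the treatment of multiply mapping reads are not given in the sources used here. Of 51826 identifiers, 51633 were found in GENCODE M21, 47648 with the same version. No per-sample column was left unused.

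Genes were kept by filterByExpr of edgeR 4.0.16 (R 4.3.3), normalised by upper quartile and tested with glmQLFit and glmQLFTest, with Benjamini-Hochberg adjustment over all genes tested and a threshold of 0.05. The genotype comparison after learning (MWM and CFC libraries) carried the experiment and 4 factors of unwanted variation estimated from residuals (RUVr), and WT learning carried the experiment and 3 factors. The comparisons within RNA-Seq 2 and both differences of genotype effects carried no factors. RUVr and the GC-content normalisation were written anew after the published descriptions, because RUVSeq and EDASeq were not at hand, and the factors may differ from those of the authors. The fits were tested on simulated data. DESeq2 1.42.0 was an alternative. Others were TMM, no filter on low counts, GC-content normalisation, no factors, a replicate block, each experiment alone and leaving out each library. The marker covariates and the fit without 2 homecage libraries were added after seeing the data.

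The correlation of deviations from the group means between libraries with like numbers was 0.125 to 0.617 over 6 pairs in WT learning and 0.215 to 0.479 over 4 pairs in CBP KIX/KIX mice, above the limit of 0.1 set for treating numbers as pairs. The main fits of these comparisons, whose p-values are given, nevertheless carried no block, and the block was run as an alternative. It was -0.343 to 0.624 between genotypes after learning and -0.0630 to 0.409 in the homecage, where numbers were not taken as pairs. Library totals were 38174044 to 65709282 counts in RNA-Seq 1 and 15385836 to 46056290 in RNA-Seq 2, and no pair of replicates agreed within sampling noise.

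The members and all lists were chosen with earlier results of these data known. Named beside the members were, for each list, the genes that passed and the gene of lowest p, and for Selenop and Gstm1 the 5 genes of highest correlation. Sequences came from GENCODE M21 transcripts on GRCm38 and promoter windows from RefSeq on GRCm38.p6.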

Additional observations from a re-analysis of the deposited data

Results flagged for a closer look

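Of 27 sets of 4 libraries (9 genes in 3 groups), 2 held a library far from the other 3 by Dixon's test, which chance does in about 1 of 20 sets. Selenow was at 446 CPM in replicate 2 of the CBP KIX/KIX CFC group, with the gap to the next library making up 0.895 of the group's range. Gstm7 was at 27.6 CPM in replicate 4 of the WT CFC group, with a gap of 0.841 of the range. Their causes were not tested.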

How the results depend on the processing

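The number of genes called after learning between genotypes (610) was 933 with DESeq2, 308 without the filter, 214 after GC-content normalisation, 4 without factors, 3 in RNA-Seq 1 alone, 1 in RNA-Seq 2 alone, 1326 with the choroid plexus covariate and 233 to 1022 when a library was left out. For WT learning (231) it was 135 with TMM, 821 with DESeq2, 143 without the filter, 42 after GC-content normalisation, 9 without factors, 3 in RNA-Seq 1, 21 in RNA-Seq 2 and 36 to 2274 when a library was left out. There the split of higher and lower genes was 89 and 142, but 88 and 47 with TMM, 574 and 247 with DESeq2, 79 and 64 without the filter, and 33 and 9 after GC-content normalisation. In the homecage (2) it was 57 with DESeq2, 10 without the filter and 0 to 7 with a library left out, for CBP KIX/KIX learning (2) 46 with DESeq2 and 0 to 155, and for the difference between CFC and homecage (0) 1 with DESeq2 and 0 to 63, the highest values of these 3 coming without CBP KIX/KIX homecage replicate 1. The difference between MWM and CFC stayed at 0 in every alternative run. The causes were not tested.

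With a replicate block the counts were 2780 with and 8 without factors between genotypes after learning, 905 and 12 for WT learning, and 0 in the homecage. Between genotypes the libraries share only a number. Under the block with factors Gstm7 (0.17, adjusted p = 0.00559) and Txnrd1 (-0.11, adjusted p = 0.0112) were called after learning. That fit called 2780 of 21489 genes and left 2 residual degrees of freedom. Under the block without factors neither was called. The block changed the sign of Txnrd1 in WT learning (-0.00020), Prdx6 in the homecage (-0.019) and Gpx4 in CBP KIX/KIX learning (0.011), and no other call of a member.

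Other sign changes concerned members with values near 0. After learning between genotypes Selenow was 0.0059 after GC-content normalisation, and in RNA-Seq 2 alone Selenow was 0.0024, Gpx1 -0.056 and Gstm5 -0.066, with Prdx6 at 0.0044 in RNA-Seq 1. In WT learning Selenow was 0.030 after GC-content normalisation, Txnrd1 -0.020 in RNA-Seq 1, and in RNA-Seq 2 Gpx1 was 0.0084, Gpx4 -0.0084, Gstm1 0.017 and Gstm7 0.083. In the homecage the astrocyte covariate gave Gpx4 0.14, Gstm5 0.037, Gstm7 0.072 and Prdx6 -0.040, and the fit without 2 libraries gave Gpx4 0.057 and Gstm7 0.052. Leaving out a library moved Gpx1 from -0.020 to 0.040 and Gstm5 from -0.011 to 0.069 between genotypes after learning, Selenow from -0.13 to 0.0074, Txnrd1 from -0.0033 to 0.049 and Gstm7 from -0.11 to 0.0083 in WT learning, Gpx1 from -0.015 to 0.21, Txnrd1 from -0.053 to 0.014 and Prdx6 from -0.016 to 0.072 in the homecage, and Gpx4 from -0.079 to 0.090 in CBP KIX/KIX learning.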
